A study of Rattus norvegicus with 15 samples.

Results

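The tubulin genes and Dcx described here are 10 of the 22314 genes in the deposited count table: the beta-tubulins Tubb2b, Tubb2a, Tubb3, Tubb4a, Tubb4b, Tubb5 and Tubb6, the alpha-tubulins Tuba1a and Tuba1b, and Dcx, which encodes the microtubule-binding protein doublecortin. They were chosen by name, with earlier results of these data known, and all 10 were found in the table and passed the filter on low counts that left 14880 genes for testing. Their differences between groups are therefore given as a description, and the p-values adjusted over all tested genes only say whether a gene passed. RNA was sequenced from frozen dorsal CA1 of wild-type male rats of the Sprague-Dawley strain, 8 to 9 weeks old, and the 15 libraries form 3 groups of 5. The first group received Accell siRNA against Rnf20, a ubiquitin ligase of histone H2B, and was trained in contextual fear conditioning (replicates 4, 8, 14, 18 and 20, called Rnf20-labelled here). The second received scrambled Accell siRNA and the same training (replicates 5, 6, 10, 15 and 16), and the third received scrambled siRNA with no training and is called naive (replicates 1, 2, 9, 11 and 12). Every rat thus had siRNA injected into dorsal CA1, in the trained rats 5 days before training, no naive group with Rnf20 siRNA is among the samples, and the tissue held all brain cell types.

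Microtubules are polymers of alpha- and beta-tubulin dimers, and vertebrate neurons build them from several gene products, called isotypes, that differ mostly in their C-terminal tails. Tubb2b, Tubb3, Tuba1a and Dcx are known from developing neurons, where human mutations in them disturb neuronal migration or axon guidance, while Tubb4a is abundant in mature brain and in myelinating oligodendrocytes. Cells also tune tubulin mRNA to the pool of free tubulin, by degrading the mRNA on ribosomes that are making tubulin.

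Total counts ran from 12537250 to 18458527 in Rnf20-labelled, from 15342480 to 20644425 in scrambled trained and from 14249375 to 17046535 in naive libraries. Rnf20 itself stood at 42.0 ± 2.32 CPM (read counts relative to the library size, which was scaled by the TMM method) in Rnf20-labelled, 43.2 ± 5.39 CPM in scrambled trained and 41.8 ± 2.28 CPM in naive libraries (SD, n = 5 each), so the siRNA group is named by its label and no direction below is one of a measured loss of Rnf20 mRNA. CA1 markers were present (9 of 11 are in the table and none is at 0 in all libraries), with summed levels of 615 to 1087 CPM in Rnf20-labelled, 373 to 1922 CPM in scrambled trained and 607 to 1359 CPM in naive libraries. Summed striatal markers ran from 199 to 426 CPM in Rnf20-labelled, from 158 to 919 CPM in scrambled trained and from 220 to 502 CPM in naive libraries. Scrambled trained replicate 10 was the lowest library in CA1 markers and the highest in striatal markers. Summed reactive glia markers, genes that injured tissue switches on in glia, ran from 2422 to 8234 CPM in Rnf20-labelled, from 4431 to 9359 CPM in scrambled trained and from 3221 to 4992 CPM in naive libraries, and were highest in scrambled trained replicates 15 and 10 and Rnf20-labelled replicate 18. Summed choroid plexus markers were lowest in scrambled trained replicates 5 and 16 and Rnf20-labelled replicate 20, at 11.4, 48.7 and 85.1 CPM. They ran from 797 to 4295 CPM in the other trained libraries and from 1429 to 4442 CPM in naive ones. The part of these marker differences in the values below was not tested.

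Tubb2b, a beta-tubulin of growing neurons that mature neurons and some glia also express, was higher in every scrambled trained library than in every naive one. It stood at 142, 195, 176, 179 and 162 CPM in the Rnf20-labelled libraries (replicates 4, 8, 14, 18 and 20). In the scrambled trained libraries (replicates 5, 6, 10, 15 and 16) it stood at 187, 219, 209.5, 212 and 194 CPM, and in the naive libraries (replicates 1, 2, 9, 11 and 12) at 151, 137, 135, 147 and 153 CPM. The scrambled trained and naive groups did not overlap, and the Rnf20-labelled values lay between them and reached into both: 4 of 5 were above all naive libraries and 4 of 5 below all scrambled trained ones. Raw counts were 2111 to 2911 in Rnf20-labelled, 3056 to 4640 in scrambled trained and 2142 to 2341 in naive libraries, so counting error is small beside the spread between libraries.

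The mean Tubb2b level was 171 ± 19.8 CPM in Rnf20-labelled, 204 ± 13.1 CPM in scrambled trained and 145 ± 8.17 CPM in naive libraries. Scrambled trained over naive, the log2 fold change was 0.50 (SE 0.08), a level 1.41 times as high, with an unadjusted p of 2.60e-05 that was the smallest of the 14880 genes and an edgeR adjusted p of 0.379. DESeq2's Wald test gave the same fold change an adjusted p of 0.000124, and over all settings tried the adjusted p ran from that value to 0.819. In that comparison 0 genes (0%) passed by edgeR, 1484 (9.97%) had an unadjusted p under 0.05, DESeq2 called 58 of 14877 (0.39%), and 261 (1.75%) had groups that did not overlap. Rnf20-labelled over scrambled trained, the log2 fold change was -0.26 (SE 0.08; unadjusted p = 0.00811; edgeR adjusted p = 0.832). Rnf20-labelled over naive, it was 0.24 (SE 0.08; unadjusted p = 0.0116; edgeR adjusted p = 1.00), and these 3 comparisons share groups. Across the 3 groups Tubb2b again had the smallest p of all genes (0.000109; edgeR adjusted p = 0.743; DESeq2 adjusted p = 0.000659), in a test where 959 genes (6.44%) had an unadjusted p under 0.05 and DESeq2 called 16 of 10552 (0.152%). In bulk tissue, a change in the number of cells of a type and a change in RNA per cell cannot be told apart. Leaving out single libraries kept the trained over naive value between 0.47 and 0.53.

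Blood, reactive glia, leukocyte and microglia markers were mostly above 0 in the same comparison, where 47.2% of all tested genes were. Leukocyte markers were above 0 in 6 of 6 tested (median 1.32) and microglia markers in 12 of 13 (median 0.48). By edgeR 0 of either passed. All 4 tested blood markers (of 5 listed, none at 0) were above 0 for scrambled trained over naive (median 2.05 on the log2 scale); 0 passed by edgeR, 4 had an unadjusted p under 0.05 and DESeq2 called all 4. Of 17 reactive glia markers, 16 were above 0 (median 1.25) and 0 passed by edgeR. Among them DESeq2 called Timp1 (adjusted p = 0.0209). Hbb, a globin, averaged 136 ± 82.9 CPM in Rnf20-labelled, 274 ± 173 CPM in scrambled trained and 68.3 ± 16.3 CPM in naive libraries (2.00, SE 0.47, unadjusted p = 0.000712, for scrambled trained over naive; DESeq2 adjusted p = 0.0221). The blood markers summed to 293, 722, 233, 747 and 179 CPM in the Rnf20-labelled, 222, 1804, 1094, 801 and 476 CPM in the scrambled trained and 241, 167, 218, 261 and 155 CPM in the naive libraries. Thus 4 of 5 scrambled trained libraries were above all naive ones in blood markers, and replicate 5 lay among them. The part of blood, reactive glia, leukocytes and microglia in the Tubb2b values was not tested.

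**Figure D1:**
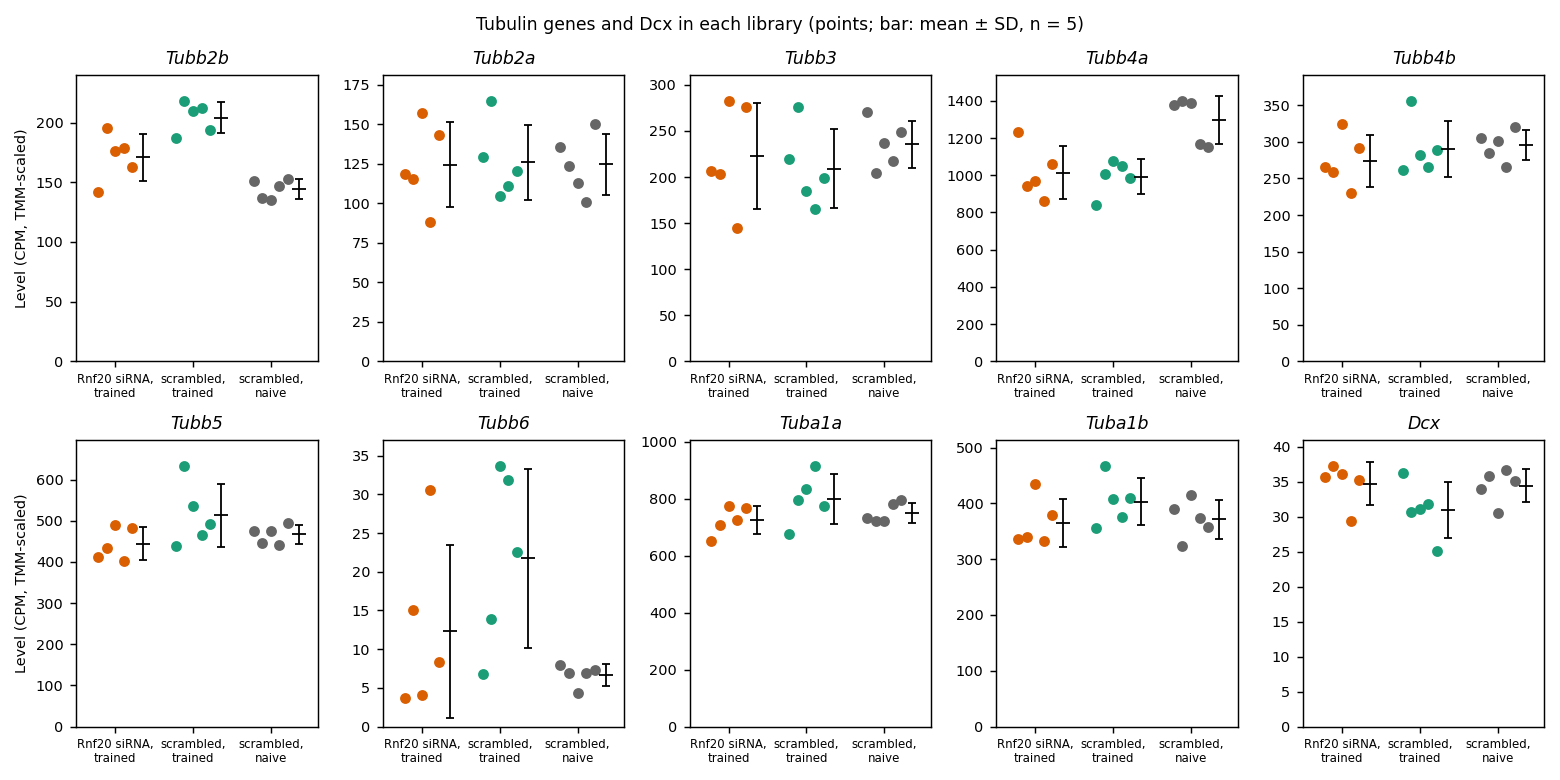
Level of each gene (CPM, TMM-scaled, linear axes from 0) in the 15 libraries, 5 points a group in order of replicate number, with the mean ± SD beside them; groups run from Rnf20-labelled trained through scrambled trained to scrambled naive. In Tubb2b the scrambled trained points (187 to 219 CPM) lie above all naive points (135 to 153 CPM), in Tubb4a they lie below, and Tubb6 is widely spread in both trained groups.

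Tubb2a, the closest relative of Tubb2b, overlapped between all 3 groups. It averaged 124 ± 26.7 CPM in Rnf20-labelled, 126 ± 23.8 CPM in scrambled trained and 125 ± 19.2 CPM in naive libraries, with ranges of 88.2 to 157 CPM, 104 to 165 CPM and 101 to 149.9 CPM in the same order. Its log2 fold change was 0.01 (SE 0.16) for scrambled trained over naive and -0.02 (SE 0.16) for Rnf20-labelled over scrambled trained. Of the reads of this pair of genes, Tubb2b took 58.1% ± 6.47 in Rnf20-labelled, 62.1% ± 4.16 in scrambled trained and 53.9% ± 3.32 in naive libraries. The 2 genes are neighbours on rat chromosome 17, with another copy, Tubb2al1, that is no row of the count table, and RefSeq lists the symbol Tubb2b among older names of Tubb2a. Counts are reported under the symbols of the table, and reads shared by near-identical copies may have been divided between them or dropped.

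The start-site sequences of 4 beta-tubulin genes are shown: Tubb2b and its neighbour Tubb2a, for a comparison of the 2 nearest relatives, and Tubb4a and Tubb6, which are the other members with an unadjusted p under 0.05 after training. Each runs from 250 bases before to 50 bases after the annotated start (RefSeq, GRCr8, 5′ to 3′ on the gene's strand; all 10 members matched). Capitals mark matches to the TATA box, spelled TATAAA here, to the CCAAT box, spelled as its name says, and to the GC box, searched for as GGGCGG. Both strands were searched, and a match on the other strand is in capitals as its reverse complement.
Tubb2b (chr17:30952836-30953135, plus strand): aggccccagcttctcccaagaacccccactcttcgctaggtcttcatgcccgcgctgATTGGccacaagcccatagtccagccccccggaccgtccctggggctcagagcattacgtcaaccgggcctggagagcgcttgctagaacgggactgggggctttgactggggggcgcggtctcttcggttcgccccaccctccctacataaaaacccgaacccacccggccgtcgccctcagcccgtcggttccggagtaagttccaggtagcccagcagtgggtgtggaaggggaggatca
Tubb2a (chr17:31001936-31002235, plus strand): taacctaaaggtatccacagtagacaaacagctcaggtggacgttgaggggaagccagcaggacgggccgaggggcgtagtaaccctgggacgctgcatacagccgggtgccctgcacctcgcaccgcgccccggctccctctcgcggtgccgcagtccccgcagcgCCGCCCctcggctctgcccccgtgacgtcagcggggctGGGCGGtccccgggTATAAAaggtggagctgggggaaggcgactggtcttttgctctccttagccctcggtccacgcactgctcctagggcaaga
Tubb4a (chr9:2012232-2012531, minus strand): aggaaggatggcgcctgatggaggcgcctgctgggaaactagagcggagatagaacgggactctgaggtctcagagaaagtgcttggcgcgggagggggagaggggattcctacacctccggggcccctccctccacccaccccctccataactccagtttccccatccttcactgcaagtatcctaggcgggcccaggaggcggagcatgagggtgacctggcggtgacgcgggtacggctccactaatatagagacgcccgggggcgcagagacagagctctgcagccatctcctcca
Tubb6 (chr18:63213037-63213336, plus strand): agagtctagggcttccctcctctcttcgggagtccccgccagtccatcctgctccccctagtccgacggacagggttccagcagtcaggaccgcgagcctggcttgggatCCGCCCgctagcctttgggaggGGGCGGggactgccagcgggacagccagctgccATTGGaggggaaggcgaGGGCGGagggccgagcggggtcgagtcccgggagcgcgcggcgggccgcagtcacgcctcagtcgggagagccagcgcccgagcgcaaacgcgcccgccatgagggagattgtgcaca
The Tubb2b window held 1 CCAAT box, at position -193 from the start, and none of the other motifs. The Tubb2a window held a TATA box at -31, 2 GC boxes, a cAMP response element (TGACGTCA) at -61 and an E-box (CANNTG) at -217, but no CCAAT box. The Tubb4a window held none of them, and the Tubb6 window held 3 GC boxes, a CCAAT box at -85 and an E-box at -93. Of 33365 distinct rat windows of the same length, 14.2% held the TATA box, 37.5% the CCAAT box, 33.1% the GC box, 72.1% the E-box and 1.83% the cAMP response element. The AP-1 motif, spelled TGANTCA, was in 7.34% of them, and none of the 10 members held it. Motifs were allowed to overlap each other, and a match describes letters only.

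Tubb3, the beta-tubulin used as a marker of neurons, also overlapped between the groups. It averaged 223 ± 57.5 CPM in Rnf20-labelled, 209 ± 42.5 CPM in scrambled trained and 235 ± 25.7 CPM in naive libraries. Its highest value, 283 CPM, was in Rnf20-labelled replicate 14 and its lowest, 145 CPM, in Rnf20-labelled replicate 18. The summed level of the 12 pan-neuronal markers was also highest in Rnf20-labelled replicate 14, at 10590 CPM, and was 5920 CPM in replicate 18. It was lowest in scrambled trained replicate 10, at 5307 CPM, where Tubb3 stood at 185 CPM. Group ranges were 5920 to 10590 CPM in Rnf20-labelled, 5307 to 8999 CPM in scrambled trained and 7476 to 9185 CPM in naive libraries. None of the 12 markers is at 0, and their part in Tubb3 levels was not tested.

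Tubb4a had the most reads of the 10 genes and was lower in every scrambled trained library than in every naive one. It stood at 1235, 944, 969, 864 and 1062 CPM in the Rnf20-labelled libraries. In the scrambled trained libraries it stood at 837, 1008, 1078, 1052 and 984 CPM, and in the naive libraries at 1379.7, 1402, 1389, 1168 and 1150.2 CPM (each in ascending order of replicate number). The highest scrambled trained library was below the lowest naive one, and 4 of 5 Rnf20-labelled libraries were as well. Means were 1015 ± 142 CPM in Rnf20-labelled, 992 ± 93.8 CPM in scrambled trained and 1298 ± 127 CPM in naive libraries. The log2 fold change was -0.39 (SE 0.11; unadjusted p = 0.00304; edgeR adjusted p = 0.379; DESeq2 adjusted p = 0.0440, over all settings 0.0440 to 0.837) for scrambled trained over naive. It was -0.35 (SE 0.11; unadjusted p = 0.00566; edgeR adjusted p = 1.00) for Rnf20-labelled over naive, and 0.03 (SE 0.11) between the trained groups. Of all tested genes, 163 (1.1%) lay wholly higher and 98 (0.659%) wholly lower in scrambled trained than in naive libraries.

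Oligodendrocyte markers were also mostly lower after training: 11 of 12 had a fold change below 0 for scrambled trained over naive (median log2 fold change -0.26), 0 passed by edgeR, and 4 had an unadjusted p under 0.05. Their summed level ran from 15257 to 26003 CPM in Rnf20-labelled, from 13057 to 29340 CPM in scrambled trained and from 16672 to 29473 CPM in naive libraries, and none of the 12 is at 0. Opalin, a myelin membrane protein, had a log2 fold change of -0.71 (SE 0.17; unadjusted p = 0.000971; DESeq2 adjusted p = 0.0349) for scrambled trained over naive. The part of these cells in the Tubb4a values was not tested.

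Tubb4b and Tubb5, which most cell types express, overlapped between all groups. Tubb4b averaged 274 ± 35.95 CPM in Rnf20-labelled, 291 ± 38.4 CPM in scrambled trained and 296 ± 20.7 CPM in naive libraries. Tubb5 averaged 445 ± 40.4 CPM in Rnf20-labelled, 513 ± 76.5 CPM in scrambled trained and 467 ± 22.4 CPM in naive libraries. Its fold change on the log2 scale was 0.14 (SE 0.10) for scrambled trained over naive and -0.21 (SE 0.10; unadjusted p = 0.0582; edgeR adjusted p = 0.832) for Rnf20-labelled over scrambled trained. Scrambled trained replicate 6 was the highest library of its group for both genes, at 357 CPM of Tubb4b and 633 CPM of Tubb5. Without it, the log2 fold change of Tubb5 was 0.06 for scrambled trained over naive and -0.12 for Rnf20-labelled over scrambled trained.

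Tubb6, a beta-tubulin of low level in brain, was high in some trained libraries of both siRNA labels and low in all naive ones. It stood at 3.65, 15.1, 4.08, 30.6 and 8.28 CPM in the Rnf20-labelled libraries (replicates 4, 8, 14, 18 and 20). In the scrambled trained libraries it stood at 6.74, 13.9, 33.7, 31.8 and 22.5 CPM (replicates 5, 6, 10, 15 and 16), and in the naive libraries at 8.01, 6.97, 4.30, 6.97 and 7.27 CPM. Thus 4 of 5 scrambled trained and 3 of 5 Rnf20-labelled libraries exceeded all naive ones, while Rnf20-labelled replicates 4 and 14 were below them all. Means were 12.3 ± 11.2 CPM in Rnf20-labelled, 21.7 ± 11.5 CPM in scrambled trained and 6.70 ± 1.41 CPM in naive libraries, from 49 to 697 reads a library.

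The log2 fold change of Tubb6 was 1.70 (SE 0.53; unadjusted p = 0.00586; edgeR adjusted p = 0.380) for scrambled trained over naive, -0.81 (SE 0.51) for Rnf20-labelled over scrambled trained and 0.89 (SE 0.53) for Rnf20-labelled over naive. Reactive glia markers were also highest in scrambled trained replicates 10 and 15 and Rnf20-labelled replicate 18. Their summed level was 2488, 5444, 2422, 8234 and 4197 CPM in the Rnf20-labelled, 4431, 5998, 8656, 9359 and 6818 CPM in the scrambled trained and 3576, 3535, 3221, 4992 and 3615 CPM in the naive libraries. Of 18 listed reactive glia markers 17 were tested, none at 0, and 16 of these were above 0 for scrambled trained over naive (median 1.25). For Rnf20-labelled over scrambled trained 0 were above 0 (median -0.88), and for Rnf20-labelled over naive 15 were (median 0.56). The scrambled trained group enters the first 2 comparisons with opposite signs, so opposite directions in them are in part built in. The part of reactive glia in the Tubb6 values was not tested. Without Rnf20-labelled replicate 18 and scrambled trained replicates 10 and 15, the libraries highest in Tubb6, the value for scrambled trained over naive was 1.12, for Rnf20-labelled over scrambled trained -0.90, and for Rnf20-labelled over naive 0.22. These libraries were picked by their Tubb6 values, so lower Tubb6 values for the trained groups over naive were built in and test nothing. Without Rnf20-labelled replicate 18 alone, the comparison of the trained groups gave -1.49 and Rnf20-labelled over naive gave 0.22. The same exclusion of 3 libraries gave 0.48 for Tubb2b and -0.45 for Tubb4a for scrambled trained over naive.

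**Figure D2:**
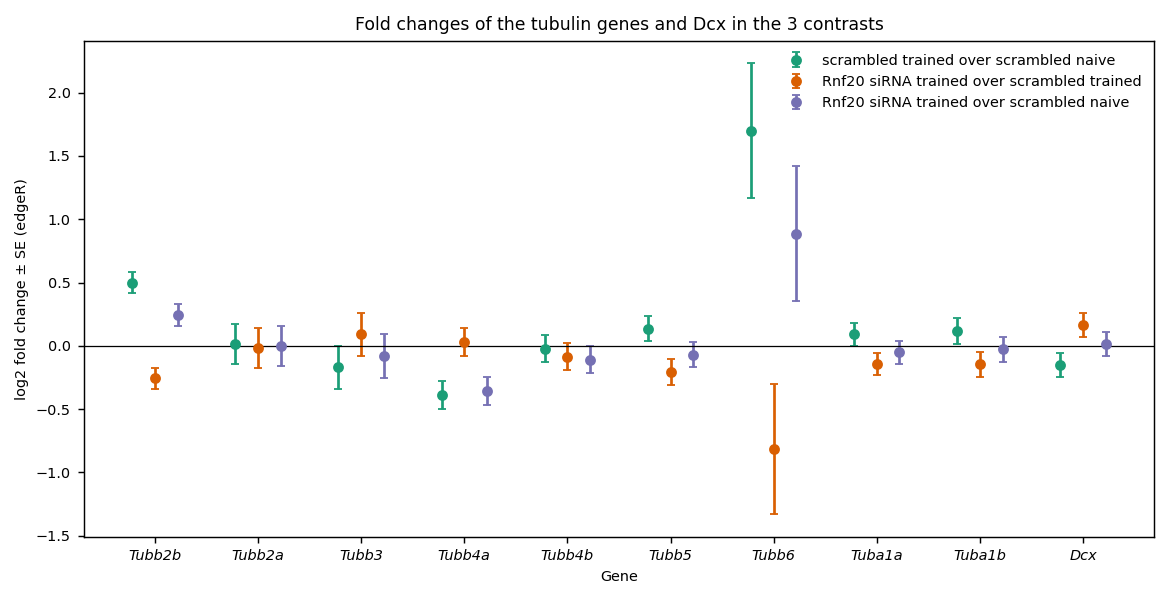
Log2 fold change ± SE (edgeR) of each gene on a linear axis, with 1 point per comparison: scrambled trained over naive, Rnf20-labelled over scrambled trained, and Rnf20-labelled over naive. Tubb6 has the farthest point, at 1.70 for scrambled trained over naive, with an SE of 0.53, and Tubb2b, at 0.50, has one of 0.08.

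As shares of the reads of the 7 beta-tubulin genes, Tubb2b made up 7.64% ± 1.43 in Rnf20-labelled, 8.69% ± 0.42 in scrambled trained and 5.64% ± 0.50 in naive libraries. The scrambled trained range of 8.18% to 9.21% lay above the naive range of 5.08% to 6.25%. Tubb4a made up 44.8% ± 4.25 in Rnf20-labelled, 42.2% ± 3.20 in scrambled trained and 50.4% ± 3.12 in naive libraries, and Tubb5 19.7% ± 1.38, 21.7% ± 1.32 and 18.2% ± 1.04 in the same order. These shares sum to 100% within a library, so that a lower share of 1 gene raises the others, and they are shares of reads, not corrected for transcript length. The summed level of the 7 genes was 2264 ± 209.5 CPM in Rnf20-labelled, 2357 ± 216 CPM in scrambled trained and 2571 ± 145 CPM in naive libraries.

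**Figure D3:**
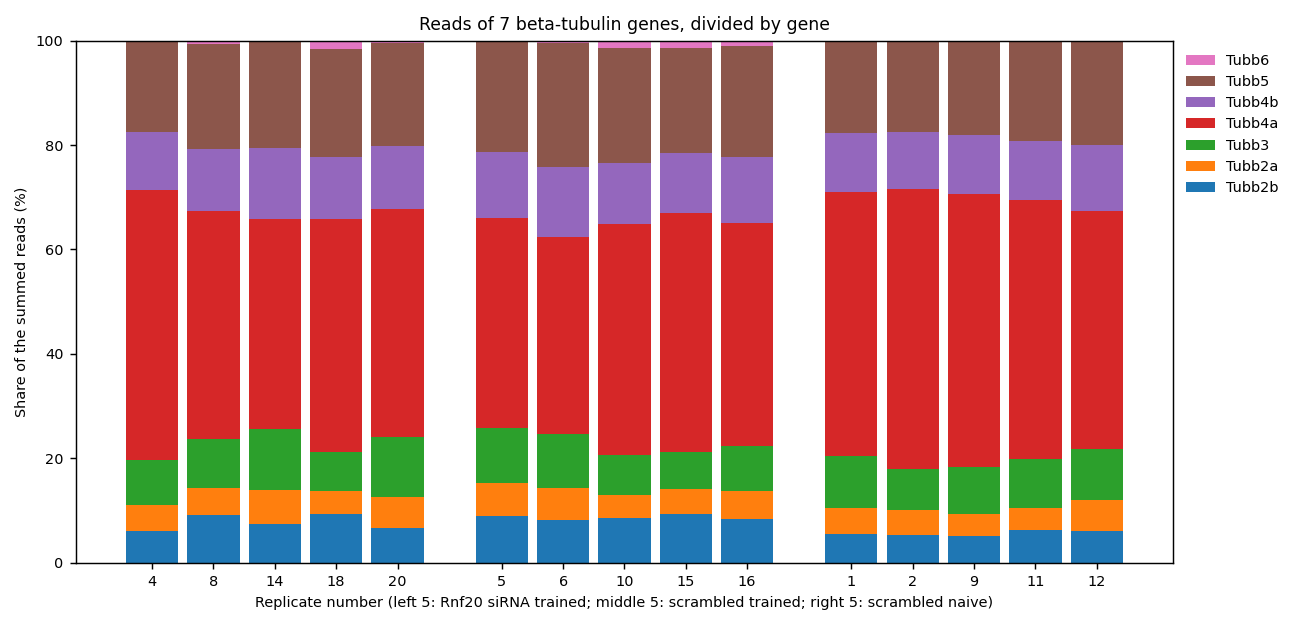
Share (%) of the summed reads of 7 beta-tubulin genes that each gene took, as 1 stacked bar per library; the left 5 bars are Rnf20-labelled trained, the middle 5 scrambled trained and the right 5 scrambled naive. Tubb4a takes 40.3% to 51.8%, 37.7% to 45.7% and 45.6% to 53.8% in these groups, and Tubb2b 5.97% to 9.23%, 8.18% to 9.21% and 5.08% to 6.25%.

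The alpha-tubulins Tuba1a, the main neuronal isotype, and Tuba1b, which most cells use, overlapped between all groups. Tuba1a averaged 725 ± 50.2 CPM in Rnf20-labelled, 799 ± 87.0 CPM in scrambled trained and 751 ± 35.6 CPM in naive libraries. Tuba1b averaged 364 ± 43.4 CPM in Rnf20-labelled, 403 ± 42.3 CPM in scrambled trained and 372 ± 34.8 CPM in naive libraries. For scrambled trained over naive the log2 fold changes were 0.09 (SE 0.09) and 0.12 (SE 0.10), and for Rnf20-labelled over scrambled trained -0.14 (SE 0.09) and -0.15 (SE 0.10). Single libraries moved these values: those for scrambled trained over naive were 0.05 for Tuba1a without scrambled trained replicate 15 and 0.07 for Tuba1b without replicate 6, and those for Rnf20-labelled over scrambled trained were -0.09 for each without the same libraries. The genes lie in a cluster on rat chromosome 7 and are near-identical, so reads could have been divided between them.

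Dcx, a marker of migrating and newborn neurons, overlapped between all groups. It stood at 35.6, 37.3, 36.2, 29.3 and 35.3 CPM in the Rnf20-labelled libraries. In the scrambled trained libraries it stood at 36.2, 30.7, 31.2, 31.9 and 25.1 CPM, and in the naive libraries at 33.9, 35.8, 30.5, 36.6 and 35.1 CPM. The lowest value of all was in scrambled trained replicate 16. Means were 34.7 ± 3.11 CPM in Rnf20-labelled, 31.0 ± 3.99 CPM in scrambled trained and 34.4 ± 2.38 CPM in naive libraries. The log2 fold change was -0.15 (SE 0.09) for scrambled trained over naive and 0.16 (SE 0.09) for Rnf20-labelled over scrambled trained, and neither passed (edgeR adjusted p = 0.621 and 0.832). Without scrambled trained replicate 16 the values were -0.08 and 0.10. Newborn neurons of the adult hippocampus arise in the dentate gyrus, and markers of its granule cells were present in every group (8 of 10 tested, none at 0 in all libraries), with summed levels of 174 to 349.9 CPM in Rnf20-labelled, 181 to 311 CPM in scrambled trained and 172 to 247 CPM in naive libraries. Their part in the Dcx level was not tested.

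Counted over the members, 6 of the 10 genes were above 0 for scrambled trained over naive, with a median log2 fold change of 0.05, against -0.01 over all tested genes. By edgeR 0 passed, and 3 (Tubb2b, Tubb4a and Tubb6) had an unadjusted p under 0.05, where 9.97% of all genes did. For Rnf20-labelled over scrambled trained, 3 were above 0 (median -0.11, against 0.00 over all genes) and 1, Tubb2b, had an unadjusted p under 0.05, where 5.61% of all genes did. For Rnf20-labelled over naive, 3 were above 0 (median -0.04) and 2, Tubb2b and Tubb4a, had an unadjusted p under 0.05, where 2.3% of all genes did. In both comparisons with the Rnf20-labelled group 0 of 14880 genes (0%) passed by edgeR, and DESeq2 called 1 gene (0.00672%) in each, which was no member. No member separated the groups: Rnf20-labelled against scrambled trained, 59 of all genes lay wholly higher (0.397%) and 39 wholly lower (0.262%), and Rnf20-labelled against naive, 37 lay wholly higher (0.249%) and 37 wholly lower (0.249%). Because the members were named with these values known, the counts describe them and test nothing.

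Among the libraries of a group, the beta-tubulins Tubb2a, Tubb3, Tubb4b and Tubb5 varied together in 5 of their 6 pairs, and Tubb2b had an r of -0.01 to 0.35 with them. After subtracting group means from log2 CPM, Tubb4b and Tubb5 had a Pearson r of 0.90 (Spearman rho 0.91; within-group permutation p = 7.00e-05 and 8.00e-05; adjusted over 45 pairs p = 0.00315 and 0.00360), which was 0.81 without the 2 libraries farthest from the median of Tubb4b. Tubb2a and Tubb3 had an r of 0.90 (rho 0.86; adjusted permutation p = 0.00585 and 0.0106), and 0.77 without the 2 libraries farthest in Tubb2a. In all, 31 of 45 pairs had an r above 0 and 7 passed by r, each positive: these 2, Tubb2a with Tubb4b (0.89), Tubb3 with Tubb4b (0.87), Tubb5 with Tuba1b (0.79), Tubb4b with Tuba1b (0.78) and Tubb3 with Tubb5 (0.71, which did not pass by rho). Without the 2 libraries farthest in the first gene of each pair, the first 3 of these 5 further pairs were at 0.75, 0.71 and 0.71. Tubb4b with Tuba1b was at 0.50 (permutation p = 0.107) and Tubb3 with Tubb5 at 0.50 (permutation p = 0.149), so these last were weaker without those libraries. Over all 15 libraries, Tubb4b with Tuba1b also passed by rho (0.77, adjusted permutation p = 0.0264). Leaving out the farthest libraries of a gene narrows its range, which by itself can lower an r. The farthest pair in the other direction was Tubb3 with Tubb6, at an r of -0.64 (adjusted permutation p = 0.209). This survey of all pairs was added after the data were seen, and the part of cell makeup in it was not tested.

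Tubb2b itself had no relation to another member that passed over its 9 relations. The closest were Tubb6 (r = 0.60, rho = 0.57; permutation p = 0.0678 and 0.0490; adjusted p = 0.305 and 0.221) and Tuba1a (r = 0.55, rho = 0.57; permutation p = 0.0413 and 0.0397; adjusted p = 0.305 and 0.221). Without Rnf20-labelled replicate 4 and scrambled trained replicate 5, the libraries farthest from the median of Tubb2b, these r were 0.30 and 0.12. They were thus weaker without those libraries, whose removal also narrows the range of Tubb2b. With Tubb2b, Dcx had an r of 0.03, or 0.45 without those 2 libraries (permutation p = 0.181, adjusted p = 0.816), and Tubb5 had 0.35, or 0.08 without them. Tubb4a had an r of -0.44, or -0.45 without them, Tubb2a 0.05 in both cases and Tubb3 -0.01, or -0.05 without them. Tubb4b had 0.14, or -0.01 without them, and Tuba1b 0.20, or -0.13 without them.

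**Figure D4:**
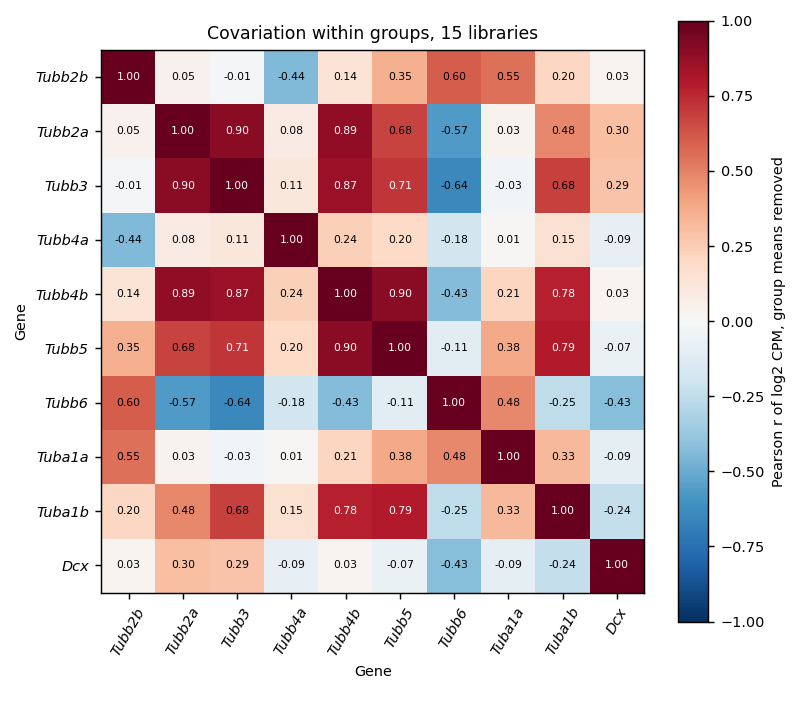
Pearson r of log2 CPM between each pair of the 10 genes over 15 libraries after removal of group means, on a colour scale from -1 to 1. The block of high values joins Tubb2a, Tubb3, Tubb4b and Tubb5 (0.68 to 0.90, of which the 0.68 of Tubb2a with Tubb5 did not pass), and Tubb2b with these 4 has -0.01 to 0.35.

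Over 14085 genes with a mean of at least 1 CPM, those whose levels most resembled Tubb2b within groups were Ncan, the brain proteoglycan neurocan (r = 0.84), Acox2, a peroxisomal oxidase (0.84), Tfdp1, a partner of E2F factors (0.80), Tfe3 (0.80), Ddx18 (0.79), Tas1r2 (0.79), Tp53inp1 (0.78) and Mien1 (0.77). For Dcx they were Pcdhb3, a protocadherin (0.88), LOC103692976 (0.82), Rlim, a ubiquitin ligase (0.82), Tbl2 (0.82) and Dcaf7 (0.80). For Tubb6, listed after its values were seen, they were Lgmn, the lysosomal protease legumain (0.97), Glipr1 (0.95), Ctsb, cathepsin B (0.95), Plbd1 (0.95) and Piezo1, a mechanically gated channel (0.95). These r describe 15 libraries and were chosen as the highest of many.

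The other tubulins of the table were 11 genes, of which 7 were tested, and 0 passed in any comparison by edgeR. Tuba1c is an alpha-tubulin of the same cluster as Tuba1a and Tuba1b. It was high in scrambled trained replicates 10 and 15 and Rnf20-labelled replicate 18, the libraries highest in Tubb6. It stood at 0.94, 2.99, 1.08, 7.44 and 1.56 CPM in the Rnf20-labelled, 1.84, 8.82, 9.74, 9.55 and 3.84 CPM in the scrambled trained and 1.12, 1.70, 3.09, 2.38 and 1.71 CPM in the naive libraries. The match was partial: scrambled trained replicate 16 had 22.5 CPM of Tubb6 and 3.84 CPM of Tuba1c, and replicate 6 had 13.9 and 8.82 CPM. In Rnf20-labelled replicate 8, with 15.1 CPM of Tubb6, Tuba1c was at 2.99 CPM, within the naive range. Its log2 fold change was 1.75 (SE 0.56; unadjusted p = 0.00675; edgeR adjusted p = 0.381) for scrambled trained over naive, with 4 of 5 trained libraries above all naive ones, and -1.26 (SE 0.55; edgeR adjusted p = 0.832) for Rnf20-labelled over scrambled trained, or -2.05 without Rnf20-labelled replicate 18. For Rnf20-labelled over naive it was 0.49 (SE 0.57), and -0.28 without that replicate. Tubd1, delta-tubulin of centrioles, averaged 5.14 ± 0.67 CPM in Rnf20-labelled, 5.34 ± 1.05 CPM in scrambled trained and 4.04 ± 0.70 CPM in naive libraries (0.40, SE 0.17, for scrambled trained over naive). Tuba4a, at 390 ± 106 CPM in Rnf20-labelled, 364 ± 69.2 CPM in scrambled trained and 396 ± 40.8 CPM in naive libraries, Tuba8, the gamma-tubulins Tubg1 and Tubg2, and Tube1 had log2 fold changes between -0.21 and -0.01 for scrambled trained over naive. Tuba3a, Tuba3b and Tubb1 had 0 to 2 reads a library and Tubal3 had none.

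Of the genes that act on tubulin, none in 10 lists passed by edgeR in any of the 3 comparisons, over 170 tested genes. The lists were chosen with earlier results of these data known. Genes for tubulin folding (the CCT chaperonin, prefoldin and tubulin cofactors) were mostly above 0 for scrambled trained over naive, 17 of 21, with a median log2 fold change of 0.09, against -0.01 over all genes. The chaperonin subunit Cct4 averaged 144 ± 11.9 CPM in scrambled trained and 125 ± 5.88 CPM in naive libraries (0.20, SE 0.07; edgeR adjusted p = 0.411), and Cct3 154 ± 11.6 and 135 ± 9.61 CPM. In Rnf20-labelled over scrambled trained 6 of 21 were above 0, with a median of -0.04, and in Rnf20-labelled over naive 14 of 21, with a median of 0.02. The 5 genes of tubulin mRNA autoregulation had medians of 0.00 in both comparisons, and the 2 of smallest p were Cnot10, a deadenylase subunit, at -0.06 (SE 0.06), and its partner Cnot11 at 0.08 (SE 0.10) for scrambled trained over naive.

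Microtubule stabilisers and end-binding proteins were above 0 in 7 of 31 for scrambled trained over naive (median -0.09) and in 24 of 31 for Rnf20-labelled over scrambled trained (median 0.05). Tppp, an oligodendrocyte protein that promotes polymerisation, averaged 124 ± 12.6 CPM in Rnf20-labelled, 102 ± 11.4 CPM in scrambled trained and 129 ± 11.0 CPM in naive libraries, and Map6d1, a relative of the stabiliser Map6, was at 57.3 ± 4.68 CPM in scrambled trained and 69.7 ± 7.03 CPM in naive libraries (-0.28, SE 0.08). Enzymes that modify tubulin tails were above 0 in 4 of 22 after training (median -0.21) and in 15 of 22 under the Rnf20 label (median 0.05). Ttll7, a polyglutamylase, averaged 168 ± 29.8 CPM in Rnf20-labelled, 138 ± 16.0 CPM in scrambled trained and 184 ± 19.9 CPM in naive libraries (-0.41, SE 0.12, for scrambled trained over naive), and its relative Ttll9 8.41 ± 2.72, 5.82 ± 2.47 and 10.4 ± 2.36 CPM in the same order (-0.84, SE 0.29). Motor subunits and adaptors were above 0 in 5 of 27 after training (median -0.08) and in 23 of 27 under the Rnf20 label (median 0.10), and the smallest p after training was that of Dync1li2, a dynein subunit (-0.17, SE 0.07), followed by the dynein regulator Nde1, which was above 0 (0.29, SE 0.18). Pan-neuronal markers had the same directions, with 0 of 12 above 0 after training (median -0.20) and 12 of 12 under the Rnf20 label (median 0.13). Values under the Rnf20 label are over scrambled trained libraries here. That group enters the 2 comparisons with opposite signs, so opposite directions are in part built in. For Rnf20-labelled over naive, 13 of 31 stabilisers, 5 of 22 modifiers and 13 of 27 motors were above 0 (medians -0.01, -0.11 and -0.01). Of the pan-neuronal markers 1 of 12 was (median -0.09). The part of these markers in the lists was not tested.

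The other genes of smallest p in these lists were the following, none of which passed by edgeR. For Rnf20-labelled over scrambled trained, the log2 fold change was -0.18 (SE 0.09) for Cct5 and -0.21 (SE 0.10) for Tcp1, both chaperonin subunits, and -0.11 (SE 0.10) for Cnot11 and 0.02 (SE 0.06) for Cnot10. It was -0.24 (SE 0.08) for Mapre1, an end-binding protein, 0.26 (SE 0.12) for Kif1a and 0.28 (SE 0.14) for Kif5c, both axonal kinesins, and 0.12 (SE 0.15) for Tubg2. Mapre1 thus lay on the other side of 0 from most stabilisers, and the kinesins on the same side as most motors. For Rnf20-labelled over naive, it was -0.11 (SE 0.10) for Tbcc, a tubulin cofactor, -0.08 (SE 0.08) for Cct2, 0.10 (SE 0.12) for Cnot1, -0.04 (SE 0.06) for Cnot10, -0.10 (SE 0.08) for Map6d1 and -0.24 (SE 0.25) for Dpysl5. Further values for that comparison were 0.27 (SE 0.13) for Svbp, the partner of the vasohibin carboxypeptidases, -0.63 (SE 0.31) for Agbl2, a deglutamylase, 0.20 (SE 0.09) for Kif17, a dendritic kinesin, 0.09 (SE 0.08) for Bicd2, 0.35 (SE 0.17) for Tubd1 and -0.09 (SE 0.06) for Tubg1.

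The lists of nucleation factors and of destabilisers hold genes of dividing cells. Kif18a, a kinesin of mitotic spindles, averaged 1.59 ± 1.06 CPM in Rnf20-labelled, 3.19 ± 1.02 CPM in scrambled trained and 1.18 ± 0.15 CPM in naive libraries (1.44, SE 0.36, for scrambled trained over naive; edgeR adjusted p = 0.379; DESeq2 adjusted p = 0.0454), and its relative Kif18b 2.73 ± 1.81, 5.39 ± 3.07 and 2.01 ± 0.44 CPM in the same order. Tpx2, a spindle assembly factor, averaged 8.60 ± 3.05 CPM in Rnf20-labelled, 15.0 ± 5.47 CPM in scrambled trained and 7.94 ± 1.54 CPM in naive libraries, and Haus4, an augmin subunit, 5.13 ± 1.12, 6.48 ± 0.90 and 4.04 ± 0.71 CPM in the same order (0.68, SE 0.17, for scrambled trained over naive; edgeR adjusted p = 0.379; DESeq2 adjusted p = 0.0454). All 10 proliferation markers were above 0 after training (median 1.34), 0 passed by edgeR, and their summed level was 30.2 to 170 CPM in Rnf20-labelled, 48.5 to 222 CPM in scrambled trained and 38.0 to 70.2 CPM in naive libraries, none at 0. Among them DESeq2 called Birc5 and Ccnb1 for scrambled trained over naive (adjusted p = 0.0192 and 0.0373). The part of dividing cells in these values was not tested. For Rnf20-labelled over naive, the smallest p of these lists belonged to Kif2c, a depolymerising kinesin (0.78, SE 0.58), Kif18a (0.44, SE 0.37), Haus4 (0.34, SE 0.17) and Tubg1.

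Genes of immature neurons and of axon growth lay on both sides of 0. Of 17 tested immature neuron genes 6 were above 0 for scrambled trained over naive (median -0.09) and 9 for Rnf20-labelled over scrambled trained (median 0.04). Nes, the intermediate filament nestin of progenitors and reactive astrocytes, averaged 7.41 ± 5.33 CPM in Rnf20-labelled, 10.2 ± 4.78 CPM in scrambled trained and 4.75 ± 0.83 CPM in naive libraries, and Tbr1, a transcription factor of young glutamatergic neurons, 21.1 ± 5.72 CPM in scrambled trained and 30.4 ± 9.07 CPM in naive libraries. Of 16 axon growth and injury genes 7 were above 0 after training (median -0.09). Atf3, a factor that injured neurons switch on, averaged 4.06 ± 4.54 CPM in Rnf20-labelled, 9.04 ± 7.95 CPM in scrambled trained and 1.89 ± 0.76 CPM in naive libraries (2.25, SE 0.73, for scrambled trained over naive; edgeR adjusted p = 0.383), while Klf7 was at 14.3 ± 2.57 CPM in scrambled trained and 19.2 ± 1.96 CPM in naive libraries (-0.43, SE 0.13). For Rnf20-labelled over scrambled trained the smallest p belonged to Hes5, a Notch target (0.44, SE 0.23), Nes (-0.46, SE 0.40), Klf7 (0.29, SE 0.13) and Cntn2, an axonal adhesion molecule (0.25, SE 0.13). For Rnf20-labelled over naive it belonged to Nes (0.64, SE 0.41), Mex3b (-0.27, SE 0.20), Jun (0.15, SE 0.12) and Atf3, whose level was 4.06 ± 4.54 CPM in Rnf20-labelled libraries, against 1.89 ± 0.76 CPM in naive ones.

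**Figure D5:**
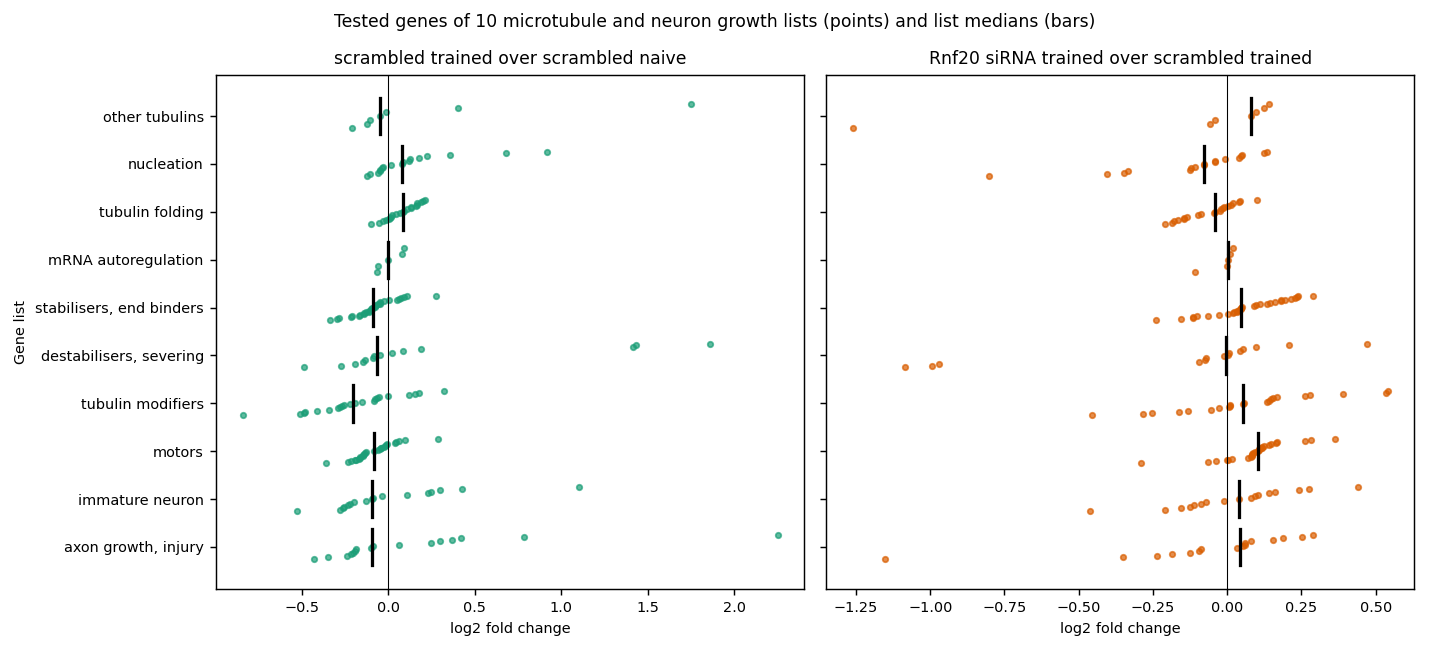
Log2 fold change (linear axis) of each tested gene in 10 lists, 1 point a gene and a bar at each list's median; the left panel gives scrambled trained over naive and the right panel Rnf20-labelled over scrambled trained. List medians stay between -0.21 and 0.09 on the left and between -0.08 and 0.10 on the right.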

How the data were processed

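Per the labels' protocols, poly(A) RNA of dorsal CA1 was made into stranded libraries with 14 cycles of PCR. Per the submitters' processing notes, the authors used Trim Galore, FastQC, featureCounts 2.0.1, DESeq2 and the assembly Rnor_6.0; aligner, annotation and strand setting were not given in the sources used here. Per the file headers, the raw table the authors deposited holds a whole read count for each gene and library. Their second deposited table, of normalised signal, equals those counts over DESeq2 size factors (0 values differed at a relative tolerance of 1e-06) and was not used further.

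Counts were tested in R 4.3.3 with edgeR 4.0.16 (TMM, filterByExpr, robust quasi-likelihood F test, 15 libraries, 12 residual degrees of freedom, Benjamini-Hochberg over 14880 genes, threshold 0.05). SEs were worked back from that fit, as the size of the log2 fold change over the square root of its F statistic. The biological coefficient of variation was 0.208. CPM use TMM-scaled library sizes, and log2 CPM a prior count of 2. Alternatives were DESeq2 1.42.0, limma-voom (limma 3.58.1), upper-quartile and median-ratio scaling, no count filter, a filter of 1 CPM in 5 libraries, only the groups compared, each library left out, and sets of libraries left out. Within-group correlations used 100000 permutations. The edgeR and correlation steps were tested on simulated data. Of 97 genes simulated with a log2 change of 0.5 for scrambled trained over naive, edgeR called 23 (23.7%). Of 100 simulated with a change of 1 it called 79. A gene that did not pass by edgeR may therefore still differ between groups.

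The members and lists were chosen with earlier results of these data known. Named genes are all members, the other tubulins, Rnf20, the genes of smallest p per list and comparison (2, where none passed) and the 8 and 5 genes most like Tubb2b and Dcx; others, among them the markers named beside a result, were chosen after their values were seen. The labels do not say that each library is its own animal, so p-values measure the spread between these samples only. Within groups, 0 of 30 pairs of libraries agreed within sampling noise (chi-square over degrees of freedom 9.07 to 69.7). Motifs were searched with Python 3.11.15 in RefSeq sequences of another assembly, GRCr8, so no coordinates of the count table's build are given.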

Additional observations from a re-analysis of the deposited data

Results flagged for a closer look

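In 4 of 42 groups of 5 libraries tested, 1 library stood apart from the other 4, where chance gives about 1 in 20. Tubb4b was at 357 CPM in scrambled trained replicate 6, with the next library at 289 CPM. Tubb6 was at 4.30 CPM in naive replicate 9, with the next lowest at 6.97 CPM. Dcx was at 29.3 CPM in Rnf20-labelled replicate 18, with the next lowest at 35.3 CPM, and the same library had the highest Tubb6 of its group. Tuba8, an alpha-tubulin outside the 10 genes, was at 58.8 CPM in Rnf20-labelled replicate 14, with the next library at 35.8 CPM.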

How the results depend on the processing

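No paired analysis was possible because the replicate numbers differ between the groups. The main counts of genes passing by edgeR, 0 in each comparison, were 58 for scrambled trained over naive by DESeq2, 1 for Rnf20-labelled over scrambled trained (Pkd1), 1 for Rnf20-labelled over naive (Per1) and 16 among the 3 groups, and DESeq2 called 2 genes of the microtubule lists after training (Haus4 and Kif18a). These DESeq2 calls include the members Tubb2b and Tubb4a, and the cause of the difference between the tools was not tested. With single libraries left out, edgeR called 0 to 1 genes for Rnf20-labelled over naive and 0 to 1 among the 3 groups (1 without naive replicate 9), and 0 in the other comparisons. Genes at an unadjusted p under 0.05, 1484 for scrambled trained over naive, came to 871 when scrambled trained replicate 15 was left out, to 2079 when replicate 5 was, and to 2234 without the 3 libraries lowest in choroid plexus genes; the 835 for Rnf20-labelled over scrambled trained were 493 without scrambled trained replicate 15 and 2012 without Rnf20-labelled replicate 18; and the 959 among the 3 groups were 529 without scrambled trained replicate 15 and 1603 without Rnf20-labelled replicate 18. Over all settings run, including single libraries left out, Tubb2b stayed above 0 for scrambled trained over naive (0.47 to 0.56) and for Rnf20-labelled over naive (0.19 to 0.30) and below 0 for Rnf20-labelled over scrambled trained (-0.31 to -0.20), and Tubb4a stayed below 0 for scrambled trained over naive (-0.45 to -0.31). Tubb6 for scrambled trained over naive ran from 1.12 to 1.98. The correlation of Tubb2b with Tubb3, -0.01, was 0.0098 with median-ratio scaling. With single libraries left out, it ran from -0.16 to 0.15, that with Dcx from -0.13 to 0.24, with Tubb2a from -0.10 to 0.19 and with Tubb4b from -0.031 to 0.27, and each of these 4 changed sign in some setting. Without the 2 libraries farthest in Tubb2b the value for Dcx was 0.45 and that for Tubb4b -0.0099. The value for Tuba1b also changed sign without them, from 0.20 to -0.13. Tubb6 and Tuba1c rest on few reads (13 to 697 a library), and leaving out sets of libraries leaves as few as 3 in a group. The setting without the 3 libraries highest in Tubb6 was chosen after seeing the data.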
